A study of Mus musculus with 24 samples.

Results

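Hypoxia-inducible and glycolysis genes were followed in mouse embryonic cortical neurons with and without the transcription factor ATF4. The set held 10 genes chosen by symbol: Vegfa, Hk2, Ldha, Pgk1, P4ha1, Pdk1, Bnip3, Egln3, Pfkfb3 and Slc2a1, out of 15946 genes named on the array. They were read by 11 probes, 2 of them for Pgk1. Of the 10 genes, 9 entered the tests, in which 8755 genes took part. Bnip3, which codes for a mitochondrial protein of mitophagy and cell death, was detected on 0 of 24 arrays, as was the dimmer Pgk1 probe.

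When oxygen falls, the prolyl hydroxylases that mark hypoxia-inducible factor (HIF) alpha subunits for destruction lose activity, HIF accumulates, and it switches on genes for glucose uptake, glycolysis, blood vessel growth and collagen modification. Several of these genes also have inputs other than oxygen. Vegfa in particular has been described as a target of ATF4, the factor whose translation is favoured when the integrated stress response slows general protein synthesis. Neurons depend on glucose, and their vascular supply is guided in part by the VEGF they secrete.

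RNA came from wild-type (WT) and ATF4 KO cultures, each either untreated or exposed to homocysteate (HCA), a glutamate homolog used to impose oxidative stress. There were 8 untreated WT arrays, 8 untreated KO arrays, 4 WT arrays with HCA and 4 KO arrays with HCA, 1 sample per array. The sources used here give no HCA dose or exposure time, no age of the embryos and no account of how the allele was made. The labels do not say whether replicates were separate cultures or animals, so every p-value measures only the spread between these samples, which may be technical. Each value is a log2 intensity after background correction and quantile normalization, so a difference of 1 is a 2-fold change. The number of arrays, and not a read depth, limits the precision.

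The 24 arrays lay on 3 chips of 8. Chip 1 held untreated samples alone, 4 of each genotype, and chips 2 and 3 each held 2 arrays of every group. Mean raw signal was 745 to 983 on chip 1, 342 to 537 on chip 2 and 296 to 669 on chip 3. From 36.6% to 47.9% of probes were detected per array. Chip was a term in each fit, so a fitted response to HCA is not the plain difference of group means, and values within each chip are given beside the results. On chip 1 WT untreated replicate 2 lay farthest from its group mean, at a root mean square deviation of 0.250. On chips 2 and 3 the 2 arrays of a group share 1 value by construction. A mean of 2 arrays also lies closer to them than a mean of 4, so this measure does not rank arrays across chips. The Atf4 probe checked the labels, although its place relative to the deleted part is not known here. It was detected on all 12 WT arrays and on 0 of the 12 KO arrays, and it was at least 18-fold lower in untreated KO cells and at least 20.7-fold lower in KO cells with HCA. These bounds hold for the background correction used here, and the fitted folds were 11.7 and 17.9 with neqc and 10.1 and 16 in the authors' deposited log2 values, which have no background correction. In WT cells Atf4 was 0.53 ± 0.12 (SE) higher with HCA (adjusted p = 0.0327), a call lost when any of 7 WT arrays was left out, with median centring (0.24, adjusted p = 1), with only the WT groups in the fit (adjusted p = 0.0804) and without chip 2 (0.128) or chip 3 (0.541).

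Of the neuronal markers on the array, 6 of 8 were detected, and their summed intensity had medians of 12760 (10790 to 15080) and 13120 (12290 to 15600) in untreated WT and KO cells, and of 14010 in both HCA groups (13160 to 14090 in WT, 13580 to 14410 in KO). Snap25 and Nefl were detected on no array. Of the 6, the neurofilament gene Nefm was higher in KO cells without HCA (0.56, adjusted p = 0.00145) and with it (0.74, adjusted p = 0.000932), and the neuronal tubulin Tubb3 was lower with HCA (-0.41, adjusted p = 0.029). Markers of several other cell types were called lower in KO cells, where 6.49% of all genes were called lower without HCA and 10.2% with it. All 4 tested astrocyte markers (Aqp4, Gja1, Slc1a3 and Aldh1l1) were lower in KO cells in both conditions, and their list summed to medians of 5567 (4723 to 6269) in untreated WT, 3483 (3008 to 5779) in untreated KO, 4664 (4485 to 5837) in WT with HCA and 2775 (2575 to 3114) in KO with HCA. Gfap, Slc1a2 and S100b, defining for mature astrocytes, were detected on no array. Microglial markers were lower in KO cells in 4 of 6 untreated and 5 of 6 with HCA, and their sums had medians of 477 (335 to 871), 279.5 (184 to 620), 579 (518 to 590) and 199 (175 to 257) in the same order. All 5 markers of dividing cells were lower in KO cells in both conditions, with sums of 3981 (3509 to 4516), 2312 (1624 to 4061), 2919 (2843 to 3025) and 1680 (1457 to 1779). Progenitor markers were lower in 2 of 3 untreated and 1 of 3 with HCA. Their sums had medians of 1220 (876 to 1701), 618 (514 to 1038), 963 (893 to 998) and 591 (542 to 725). Of the endothelial list Flt1 and Esam were detected, and Pecam1, Cdh5, Kdr and Tek, which define endothelium, were detected on no array. The sum of the endothelial list had medians of 405 (299.9 to 486) in untreated WT, 359.7 (237 to 899.7) in untreated KO, 417 (346.5 to 595) in WT with HCA and 263 (219 to 273) in KO with HCA, so the HCA groups did not overlap. Under HCA Flt1 was lower in KO cells (-1.27, adjusted p = 0.0162) and Esam had -0.50 (adjusted p = 0.155), while on chips 2 and 3 alone 2 of 2 were called lower. In such bulk samples fewer cells of a type and less RNA per cell cannot be told apart, and the part of these other cells in the genotype differences below was not tested.

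The 250 bases before the start site were searched for the hypoxia response core, spelled ACGTG or GCGTG, on both strands. ACGTG was in 16.6% and GCGTG in 28.2% of 27025 promoters of this length, and either was in 38.6%. All 10 genes had a promoter entry, of which ACGTG was in 8, GCGTG in 4 and either in 9. The exception was Vegfa. For 4 members, Vegfa, Ldha, Pdk1 and Pfkfb3, RefSeq's table had 2 entries, and the one listed first was used. The other Vegfa entry, whose start lay 7214 bases away, held 1 match of ACGTG and 1 of GCGTG. The other Ldha entry held 0 of ACGTG and 1 of GCGTG, that of Pfkfb3 held 2 and 1, and that of Pdk1 held neither core. Of the composite element for ATF4 with C/EBP, spelled TGATGNAAT and present in 0.825% of promoters, 0 of the 10 windows held a copy. The 3 genes that rose with HCA in WT cells are printed first, and Ldha, which did not pass that test, is printed beside them because its window held the most ACGTG matches, 5 when both strands of a palindrome are counted. The sequences are RefSeq's on GRCm38.p6, chr17:46032378-46032627 (minus strand), chr6:82774455-82774704 (minus strand), chr10:59323046-59323295 (plus strand) and chr7:46845554-46845803 (plus strand). Each runs 5′ to 3′ toward the start site, and capitals mark a match of either core on either strand. A match is a description of letters and not of binding.
Vegfa: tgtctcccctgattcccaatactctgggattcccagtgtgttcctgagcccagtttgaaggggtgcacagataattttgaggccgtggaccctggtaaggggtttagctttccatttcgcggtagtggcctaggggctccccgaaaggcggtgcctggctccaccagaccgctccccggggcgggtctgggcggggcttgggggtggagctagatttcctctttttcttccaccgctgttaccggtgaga
Hk2: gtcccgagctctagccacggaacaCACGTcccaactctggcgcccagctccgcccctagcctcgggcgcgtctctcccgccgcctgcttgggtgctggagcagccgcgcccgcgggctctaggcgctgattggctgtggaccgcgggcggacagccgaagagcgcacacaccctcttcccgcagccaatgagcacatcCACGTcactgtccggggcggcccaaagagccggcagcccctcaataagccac
P4ha1: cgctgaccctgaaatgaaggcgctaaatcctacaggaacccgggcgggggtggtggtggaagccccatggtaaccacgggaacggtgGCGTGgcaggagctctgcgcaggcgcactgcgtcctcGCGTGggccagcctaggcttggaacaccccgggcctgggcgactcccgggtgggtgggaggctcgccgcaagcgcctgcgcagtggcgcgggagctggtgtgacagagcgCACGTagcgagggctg
Ldha: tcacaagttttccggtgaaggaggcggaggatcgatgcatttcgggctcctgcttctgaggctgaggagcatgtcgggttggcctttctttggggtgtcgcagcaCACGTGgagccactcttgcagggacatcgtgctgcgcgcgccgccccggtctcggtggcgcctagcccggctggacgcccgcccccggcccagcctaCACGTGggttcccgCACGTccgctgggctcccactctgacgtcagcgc

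With HCA most of these genes were lower in KO than in WT cells, among them Vegfa (3.76-fold) and Hk2 (2.10-fold). In untreated cells 3 of them differed. HCA raised Vegfa, Hk2 and P4ha1 in WT cells, and no member passed the test for an HCA response in KO cells. Under limma with Benjamini-Hochberg adjustment over all 8755 genes, 7 of the 9 tested members were lower and 0 were higher in KO cells with HCA, where 20.8% of all genes were called, 10.2% as lower. Without HCA 2 were lower and 1 higher, where 12.3% of all genes were called, 6.49% as lower and 5.83% as higher. In WT cells 3 members rose with HCA and 0 fell, against 1.44% of all genes called, 0.902% as higher. In KO cells 0 members were called, against 0.0571% of all genes, and 4 members had an unadjusted p under 0.05, as did 769 of all genes. The fitted change of these 4 was below 0, at -0.32 for Hk2, -0.33 for Ldha, -0.22 for Pgk1 and -0.64 for Egln3. The HCA response itself differed between genotypes for 2 members, both with a lower response in KO cells, against 0.628% of all genes, 0.583% with a lower one. The median difference of the 9 members was -0.14 without HCA and -0.57 with HCA for KO against WT, 0.40 for HCA in WT and -0.14 for HCA in KO. Medians over all genes were 0.02, 0.03, -0.01 and 0.01. For the difference of responses the members' median was -0.60. These comparisons have arrays in common, and so their errors are not independent.

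**Figure D1:**
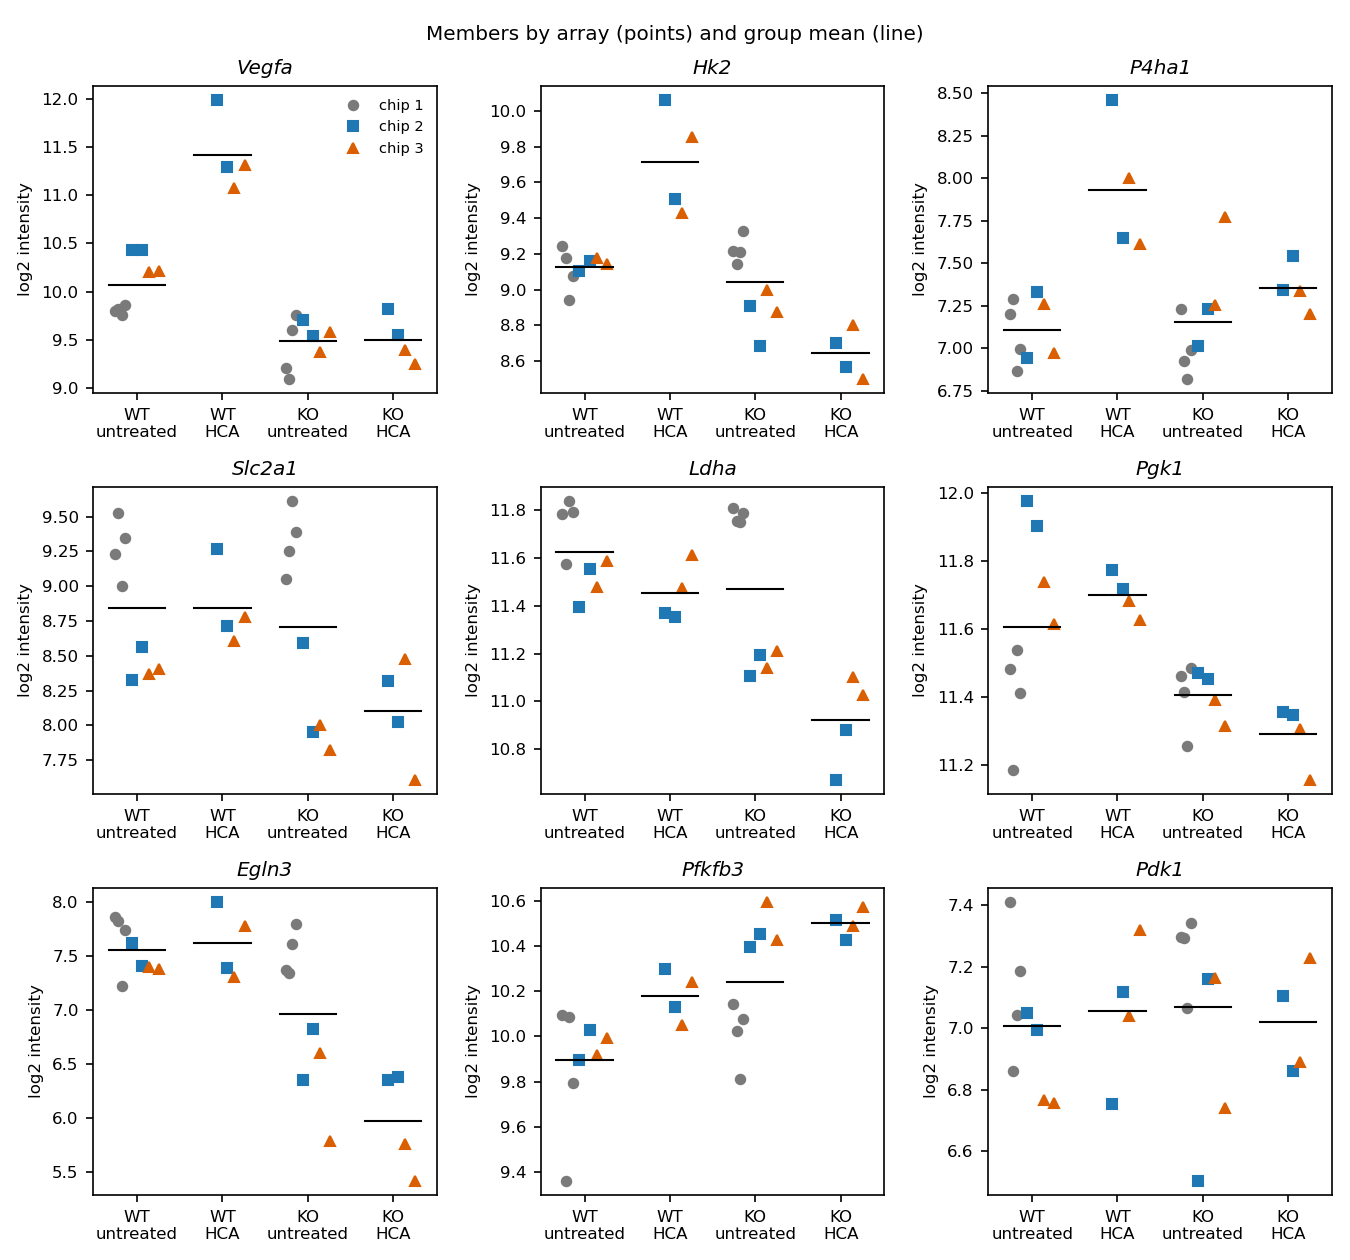
Log2 intensity (vertical axes) of the 9 tested members on each of 24 arrays, by group, with the chip as marker and colour and the group mean as a line. Vegfa in WT cells with HCA lay between 11.07 and 11.99, above every other array, while its KO arrays stayed between 9.10 and 9.82 in both conditions.

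**Figure D2:**
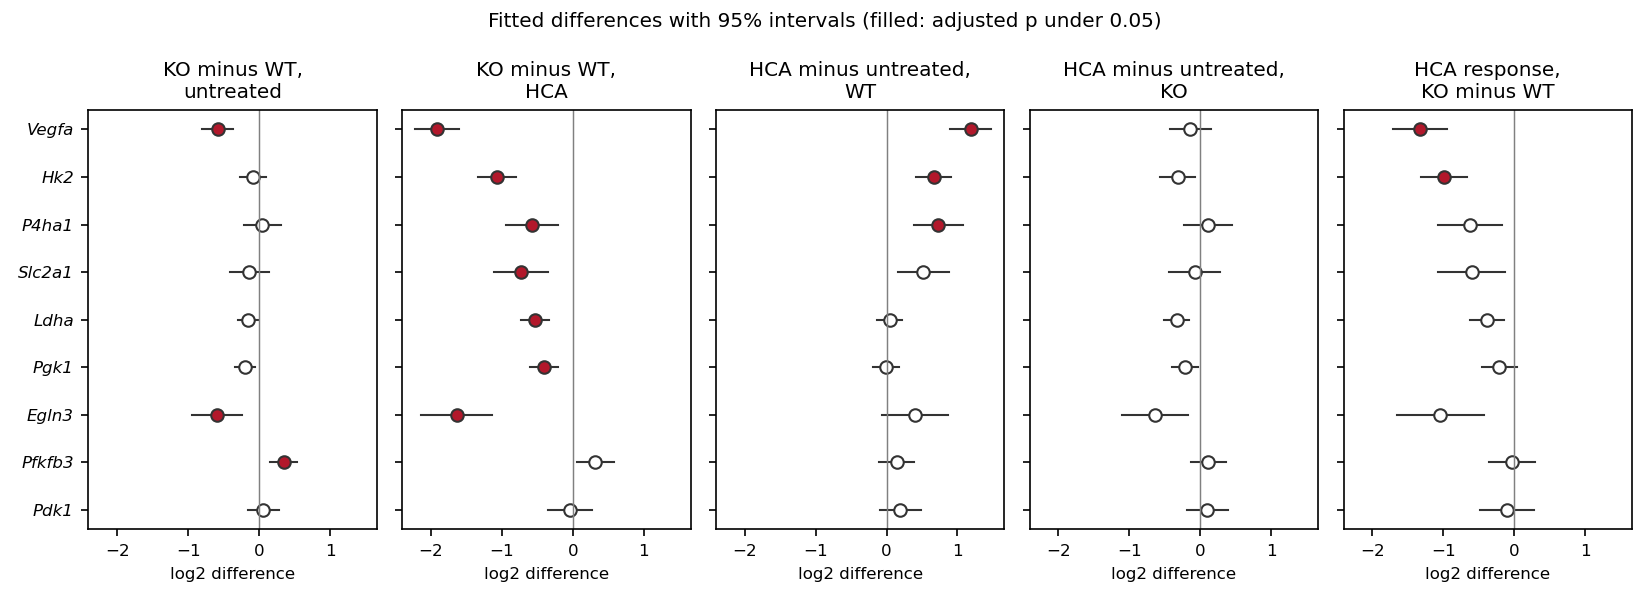
Fitted log2 differences (horizontal axes) of each member in the 5 comparisons, with 95% intervals and filled points at an adjusted p under 0.05. In the second panel 7 of 9 points are filled and lie below 0, and in the fourth none is filled.

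Vegfa codes for the secreted vascular endothelial growth factor A, the main ligand of angiogenesis. On the untreated arrays its level ran from 9.76 (median 10.04, highest 10.44) in WT cells and from 9.10 (median 9.56, highest 9.76) in KO cells. These groups met at 9.76 without overlapping, since the highest KO array lay just under the lowest WT array. With HCA the WT arrays read 11.99, 11.30, 11.07 and 11.31 and the KO arrays 9.82, 9.55, 9.39 and 9.26. Every WT array with HCA stood above every untreated WT array, and the KO arrays with HCA lay in the range of the untreated KO arrays but for 1, at 9.82, which was above it.

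Vegfa was lower in untreated KO cells (log2 difference -0.58 ± 0.11 SE, adjusted p = 0.0017). The difference was -0.39 on chip 1, -0.81 on chip 2 and -0.73 on chip 3. Under HCA it was 3.76-fold lower (-1.91 ± 0.15, adjusted p = 9.03e-09), at -1.95 on chip 2 and -1.87 on chip 3. HCA raised Vegfa 2.28-fold in WT cells (1.19 ± 0.14, adjusted p = 2.12e-05). In KO cells the fitted change was -0.14 ± 0.14 (adjusted p = 0.836), with a 95% interval from -0.43 to 0.15. The difference between these responses was -1.33 ± 0.18 (adjusted p = 0.00024), and it was -1.14 ± 0.19 on chips 2 and 3 alone (adjusted p = 0.0135). The call in untreated cells was lost with median centring (-0.49, adjusted p = 0.0697), without chip 3 (-0.53, adjusted p = 0.0984) and on chip 1 alone (adjusted p = 0.507), and the difference between responses was lost without chip 3 (-1.42, adjusted p = 0.0507).

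Hk2 codes for hexokinase 2, which traps glucose in the cell by phosphorylating it. Untreated, its level ran from 8.94 to 9.25 (median 9.15) in WT and from 8.68 to 9.33 (median 9.07) in KO cells, and the groups overlapped. Under HCA its WT arrays read 10.06, 9.51, 9.43 and 9.85 and the KO arrays 8.70, 8.57, 8.80 and 8.50. The WT arrays with HCA were all above the untreated WT arrays, and the KO arrays with HCA were in or below the range of the untreated KO arrays. Hk2 was 2.10-fold lower in KO cells under HCA (-1.07 ± 0.13, adjusted p = 8.09e-06), at -1.15 on chip 2 and -0.99 on chip 3. HCA raised it 1.59-fold in WT cells (0.67 ± 0.12, adjusted p = 0.00335), whereas the change in KO cells was -0.32 ± 0.12 (adjusted p = 0.434). The difference between responses was -0.99 ± 0.16 (adjusted p = 0.00132). That last call was lost on chips 2 and 3 alone (-0.79 ± 0.18, adjusted p = 0.142), and the response in WT cells was lost with median centring (adjusted p = 0.251) or with only its own groups in the fit (adjusted p = 0.0894).

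Slc2a1 codes for GLUT1, the glucose transporter that serves basal uptake. Its untreated level ran from 8.33 to 9.53 (median 8.78) in WT and from 7.82 to 9.61 (median 8.82) in KO cells, with chip 1 high in both. On the HCA arrays it was 9.27, 8.71, 8.60 and 8.78 in WT and 8.32, 8.02, 8.47 and 7.61 in KO cells. The HCA groups did not overlap. Slc2a1 was 1.66-fold lower in KO cells under HCA (-0.73 ± 0.18, adjusted p = 0.0075), at -0.82 on chip 2 and -0.65 on chip 3. Its difference in untreated cells (-0.14 ± 0.13, adjusted p = 0.542) and its response to HCA in WT cells (0.52 ± 0.17, adjusted p = 0.168) missed the threshold. The call under HCA was lost without the chip term (adjusted p = 0.243) and with only the HCA groups in the fit (adjusted p = 0.0507).

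Pfkfb3 codes for the bifunctional enzyme that makes fructose 2,6-bisphosphate, the activator of phosphofructokinase, and it went the other way. Untreated, it ran from 9.36 to 10.10 (median 9.96) in WT cells and from 9.81 to 10.60 (median 10.27) in KO cells. On exposure to HCA it was 10.30, 10.13, 10.05 and 10.24 in WT and 10.52, 10.43, 10.49 and 10.57 in KO cells. The untreated groups overlapped through chip 1, and the HCA groups did not overlap. Pfkfb3 was 1.27-fold higher in untreated KO cells (0.35 ± 0.09, adjusted p = 0.0167). The difference was 0.18 on chip 1, 0.46 on chip 2 and 0.56 on chip 3. Under HCA it was 0.32 ± 0.13 (adjusted p = 0.0812), and on chips 2 and 3 alone the same difference passed (0.32 ± 0.07, adjusted p = 0.0065). It also passed without WT untreated replicate 2 (adjusted p = 0.0442) and with only the HCA groups in the fit (0.0429). The call in untreated cells was lost with median centring (adjusted p = 0.171), without the chip term (0.093), with array weights (0.0552) and with only the untreated groups in the fit (0.0508). It was also lost without chip 2 (adjusted p = 0.218), without chip 3 (0.304) and on chip 1 alone (0.807).

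Pgk1 and Ldha act further down the pathway. Pgk1 codes for phosphoglycerate kinase 1, one of the ATP-making steps, and its bright probe ran from 11.19 to 11.98 (median 11.58) in untreated WT and from 11.26 to 11.49 (median 11.44) in untreated KO cells. With HCA its WT arrays read 11.77, 11.72, 11.68 and 11.63 and its KO arrays 11.36, 11.35, 11.31 and 11.16. The untreated groups overlapped and the HCA groups did not. Pgk1 was 1.33-fold lower in KO cells under HCA (-0.41 ± 0.10, adjusted p = 0.00498). In untreated cells its difference of -0.20 ± 0.07 missed the threshold (adjusted p = 0.0586). It passed with neqc (adjusted p = 0.0402), in the deposited log2 values (0.0377) and with detection asked for on 12 or more arrays (0.0485). It also passed without WT untreated replicate 2 (adjusted p = 0.0086) or without KO untreated replicate 1, 2 or 4 (adjusted p = 0.0424, 0.049 and 0.0372), and on chips 2 and 3 alone (-0.40 ± 0.06, adjusted p = 0.000617).

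Ldha codes for the muscle-type subunit of lactate dehydrogenase, which turns pyruvate into lactate. Untreated, it ran from 11.40 to 11.84 (median 11.58) in WT and from 11.11 to 11.81 (median 11.48) in KO cells. With HCA the WT arrays read 11.37, 11.36, 11.47 and 11.62 and the KO arrays 10.67, 10.88, 11.10 and 11.03. All 4 KO arrays with HCA were below the lowest array of each other group. Ldha was 1.45-fold lower in KO cells under HCA (-0.53 ± 0.09, adjusted p = 0.000487), at -0.59 on chip 2 and -0.48 on chip 3. The change with HCA was 0.04 ± 0.09 in WT cells (adjusted p = 0.881) and -0.33 ± 0.09 in KO cells (adjusted p = 0.22), and the responses differed by -0.38 ± 0.11 (adjusted p = 0.177). In untreated cells the genotypes differed by -0.16 ± 0.07 (adjusted p = 0.126), which passed on chips 2 and 3 alone (-0.34 ± 0.08, adjusted p = 0.00714) and without WT untreated replicate 2 (adjusted p = 0.0341). Median centring ended the HCA call of Ldha (adjusted p = 0.0526) and of Pgk1 (adjusted p = 0.239).

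Pdk1 codes for pyruvate dehydrogenase kinase 1, which keeps pyruvate out of the mitochondrial oxidation route, and it passed no test. Untreated, it ran from 6.76 to 7.41 (median 7.02) in WT and from 6.50 to 7.34 (median 7.16) in KO cells. With HCA its WT arrays read 6.75, 7.12, 7.04 and 7.32 and its KO arrays 7.10, 6.86, 6.89 and 7.23. The 4 groups overlapped one another. The difference between genotypes was 0.06 ± 0.11 without HCA (adjusted p = 0.754) and -0.04 ± 0.15 with HCA (adjusted p = 0.898), the latter with a 95% interval from -0.35 to 0.27.

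P4ha1 codes for the catalytic subunit of collagen prolyl 4-hydroxylase. Untreated, it ran from 6.87 to 7.33 (median 7.10) in WT and from 6.82 to 7.77 (median 7.12) in KO cells. With HCA the WT arrays read 8.46, 7.65, 8.00 and 7.61 and the KO arrays 7.34, 7.54, 7.34 and 7.20. Each WT array with HCA was above all untreated WT arrays and all KO arrays with HCA. HCA raised P4ha1 1.66-fold in WT cells (0.73 ± 0.17, adjusted p = 0.0259), and it was 1.49-fold lower in KO than in WT cells under HCA (-0.57 ± 0.18, adjusted p = 0.0245). The HCA responses differed by -0.62 ± 0.22, which missed the threshold (adjusted p = 0.24). Both calls of P4ha1 were near the threshold. The rise was lost with median centring (adjusted p = 0.169), with only the WT groups in the fit (0.0772) and on chips 2 and 3 alone (0.0523), and it was lost without WT HCA replicate 1 (0.54, adjusted p = 0.168), WT HCA replicate 3 (0.0773), WT untreated replicate 5 (0.0602) or WT untreated replicate 8 (0.0592). The genotype difference was lost with median centring (adjusted p = 0.0673), with only the HCA groups in the fit (0.0685) and with array weights (0.0546), and without WT HCA replicate 1 (-0.38, adjusted p = 0.118), WT HCA replicate 3 (0.06) or KO HCA replicate 1, 3 or 4 (0.0509, 0.0544 and 0.0683).

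Egln3 codes for PHD3, an oxygen-dependent prolyl hydroxylase that is itself induced by HIF. Its untreated level ran from 7.22 to 7.85 (median 7.51) in WT cells and from 5.79 to 7.80 (median 7.08) in KO cells, where the 4 arrays of chip 1 were high and the other 4 low. With HCA the WT arrays read 8.00, 7.39, 7.30 and 7.77 and the KO arrays 6.35, 6.38, 5.76 and 5.42. The HCA groups did not overlap. The probe was detected on all WT arrays, on 7 of 8 untreated KO arrays and on 2 of 4 KO arrays with HCA. Egln3 was 3.11-fold lower in KO cells under HCA (-1.64 ± 0.24, adjusted p = 9.28e-05). The size rested on the background correction: it was 1.78-fold with neqc (-0.83, adjusted p = 8.12e-05) and 1.76-fold in the deposited log2 values (-0.81, adjusted p = 3.54e-05). In untreated cells it was 1.51-fold lower (-0.59 ± 0.17, adjusted p = 0.0261), at -0.13 on chip 1, -0.93 on chip 2 and -1.19 on chip 3, and it was -0.33 with neqc (adjusted p = 0.0176) and -0.31 in the deposited values (adjusted p = 0.0158). The call in untreated cells was lost when KO untreated replicate 5 (adjusted p = 0.0651) or 8 (0.0623) or WT untreated replicate 5 (0.0557), 7 (0.0618) or 8 (0.0646) was left out, with median centring (0.161) and without the chip term (0.189). That call was also lost without chip 2 (adjusted p = 0.238), without chip 3 (0.304) and on chip 1 alone (0.865). Its HCA responses differed by -1.04 ± 0.29 (adjusted p = 0.136). Of the 24 fits that left an array out 1 called this difference, without KO untreated replicate 8 (-1.15, adjusted p = 0.0477). On chips 2 and 3 alone it was -0.58 ± 0.29 (adjusted p = 0.738), at -0.40 on chip 2 and -0.76 on chip 3.

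Within chips, untreated genotypes were compared as 4 arrays against 4 on chip 1 and as 2 against 2 on chips 2 and 3, where groups fail to overlap more readily. The groups of 1 tested member, Vegfa, did not overlap on chip 1, where 5.53% of all genes did not. On chip 2 this held for 6 of the 9 members, against 49.6% of all genes, and on chip 3 for 7, against 50.8%. Hk2, Ldha and Pgk1 differed by 0.11, 0.03 and 0.00 on chip 1, by -0.34, -0.33 and -0.48 on chip 2 and by -0.23, -0.36 and -0.32 on chip 3. A test of chip by genotype in the untreated arrays called none of the members with limma (adjusted p = 0.181 for Egln3, 0.184 for Ldha, 0.2 for Hk2 and Pgk1 and 0.546 for Vegfa), although 158 genes were called in all. Unadjusted p was under 0.05 for Hk2, Ldha, Pgk1 and Egln3. On chips 2 and 3 alone 4 members were lower in untreated KO cells (Vegfa, Ldha, Pgk1 and Egln3), where 10.6% of all genes were called lower, and Pfkfb3 was higher, where 9.75% were. With HCA the same 7 members were lower on these chips, against 11% of all genes. Vegfa and Hk2 rose with HCA in WT cells, against 0.857% of all genes, and the difference of responses was called for Vegfa, against 0.263%. Under HCA 8 of the 9 tested members did not overlap between genotypes on chip 2, where 49.9% of all genes did not, on chip 3, where 54.6% did not, and over both, where 22.6% did not. Pdk1 was the exception. Over all arrays 1 member did not overlap between untreated genotypes (Vegfa), against 0.651% of all genes, 3 did not overlap between HCA and untreated WT cells (Vegfa, Hk2 and P4ha1), against 3.6%, and 1 between HCA and untreated KO cells (Ldha), against 1.83%.

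**Figure D3:**
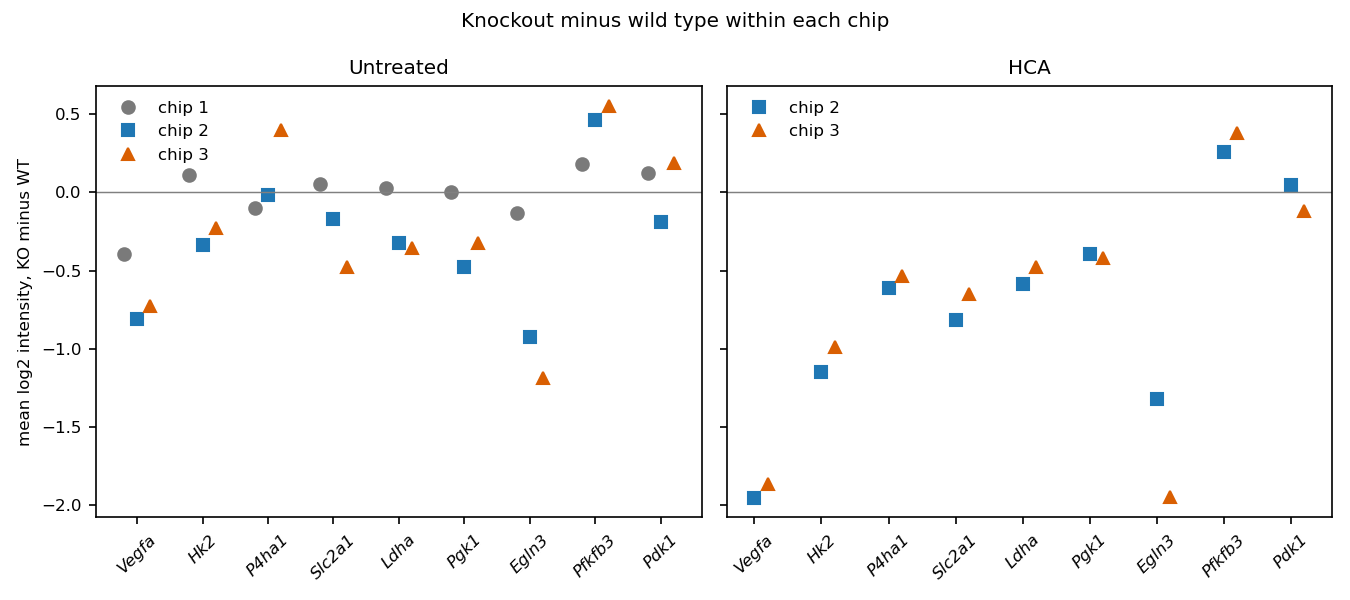
Mean log2 intensity in KO minus WT arrays (vertical axes) for each tested member within each chip, untreated on the left and with HCA on the right. On the left the chip 1 points of Hk2, Ldha, Pgk1 and Slc2a1 lie at or above 0 and those of chips 2 and 3 below it, and on the right the chip 2 and chip 3 points of Vegfa, Hk2, P4ha1, Slc2a1, Ldha, Pgk1 and Egln3 all lie below 0.

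Leaving out a whole chip, a setting chosen after seeing the data, left 2 arrays in each HCA group. Without chip 2 Vegfa, Hk2 and Egln3 kept their calls between genotypes under HCA, and without chip 3 these and Ldha did. Of the 3 members that rose with HCA in WT cells, Vegfa kept its call in both settings, while Hk2 had adjusted p = 0.235 and 0.0558 and P4ha1 0.771 and 0.0822. Without chip 3 the difference of responses of Hk2 also missed the threshold (-1.11, adjusted p = 0.0507).

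Of 23 other glycolytic enzymes listed, 16 were tested. Lower in KO cells were 2 of the 16 without HCA, against 6.49% of all genes, and 3 with HCA, against 10.2%. On chips 2 and 3 alone 6 of the 16 were lower without HCA, against 10.6% of all genes, and 3 with HCA, against 11%. Pfkp, the platelet isoform of phosphofructokinase (-0.52, adjusted p = 0.0386), and Ldhb, the heart-type lactate dehydrogenase subunit (-0.36, adjusted p = 0.00369), were lower in untreated KO cells. Under HCA Pfkp (-1.61, adjusted p = 6.94e-05), Ldhb (-0.53, adjusted p = 0.00118) and Gapdh (-0.29, adjusted p = 0.0268) were lower and none was higher. Aldoa, an aldolase, had -0.37 (adjusted p = 0.0522) and Pkm, pyruvate kinase, -0.21 (adjusted p = 0.079) in the same comparison. No enzyme of this list was called for a response to HCA in either genotype with limma. In each genotype 4 of 16 had an unadjusted p under 0.05, as did 1185 of all 8755 genes in WT and 769 in KO cells. The median of the list was -0.17 for KO against WT under HCA, beside 0.03 for all genes, and 0.01 for HCA in WT cells, beside -0.01.

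Of 36 other hypoxia-inducible genes 23 were tested. With HCA 8 were lower in KO cells and 0 higher, against 10.2% and 10.6% of all genes. Hmox1, the heme-degrading enzyme, was lower by a log2 difference of -2.16 (adjusted p = 2.89e-05), Stc2, a secreted glycoprotein, by -1.96 (9.03e-09), Ddit4, an inhibitor of mTORC1, by -1.73 (1.51e-05) and Plod2, a collagen lysyl hydroxylase, by -1.02 (0.00105). The others were Bhlhe40, P4ha2, Plod1 and Narf, at -0.65 to -0.51. In untreated KO cells Stc2 (-0.58, adjusted p = 0.00215) and Hmox1 (-0.72, adjusted p = 0.0225) were lower and the neuronal glucose transporter Slc2a3 was higher (0.24, adjusted p = 0.0488). Of all genes 6.49% were called lower there and 5.83% higher. HCA raised 4 in WT cells, Hmox1 (2.41), Ddit4 (1.46), Stc2 (1.19) and Wsb1 (0.40), and the response of Stc2 (-1.38) and Ddit4 (-1.41) was lower in KO cells. In these 2 tests 0.902% of all genes rose and 0.583% had a lower response in KO cells. Hmox1, Stc2 and Ddit4 are also known as genes of oxidative or integrated stress responses, and Stc2 and Ddit4 stood in the stress list as well. The median of the list was -0.15 under HCA and 0.18 for HCA in WT cells. Lists and members alike were chosen with results of these data known, so these counts are a description.

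Of 18 genes of oxygen sensing 14 were tested, and 1 was called higher in KO cells without HCA, against 5.83% of all genes, and 2 with HCA, against 10.6%. Of this list the HIF subunits Hif1a and Epas1 and the asparagine hydroxylase Hif1an were on the array but not tested. None of their probes was detected on 4 or more arrays. Crebbp, a HIF coactivator, was higher in untreated KO cells (0.35, adjusted p = 0.0427) and with HCA (0.49, adjusted p = 0.0339), and Siah1a, a ubiquitin ligase, with HCA (0.17, adjusted p = 0.0397). No gene of this list was called lower, and none was called for HCA in either genotype with limma. An unadjusted p under 0.05 was found for 2 in WT and 0 in KO cells, against 1185 and 769 of all 8755 genes. Arnt, the partner subunit of HIF alpha, was 0.33 ± 0.15 with HCA in WT (adjusted p = 0.353) and 0.27 ± 0.15 in KO cells (adjusted p = 0.636). Egln1, which codes for the main HIF prolyl hydroxylase PHD2, differed by 0.15 without and 0.18 with HCA between genotypes (adjusted p = 0.252 and 0.309).

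Among 6 tested genes of the VEGF family and its receptors, Flt1, a VEGF receptor, was lower in KO cells under HCA (-1.27, adjusted p = 0.0162), and the co-receptor Nrp1 was higher (0.39, adjusted p = 0.023). None was called in the other comparisons with limma over all chips, where at most 1 of the 6 had an unadjusted p under 0.05. Of all 8755 genes 769 to 2390 had such a p there. On chips 2 and 3 alone 1 was higher and 2 were lower in untreated KO cells, against 9.75% and 10.6% of all genes. Of 7 tested genes of pyruvate dehydrogenase and its regulators, the kinase Pdk3 was lower in untreated KO cells (-0.30, adjusted p = 0.0242). No other call was made over all chips. Between genotypes under HCA 3 of the 7 had an unadjusted p under 0.05, as did 2942 of all 8755 genes. On chips 2 and 3 alone 1 of the 7 was lower in KO cells without HCA and 1 with it, against 10.6% and 11% of all genes. The stress regulators downstream of ATF4 were read in the same way: 7 of 10 were lower without HCA, 10 of 10 lower with HCA and 9 of 10 raised by HCA in WT cells, with medians of -0.67, -1.85 and 0.98. The shares of all genes so called were 6.49%, 10.2% and 0.902%. Chac1, a glutathione-degrading enzyme, differed most among the stress regulators, at -5.09 (adjusted p = 1.04e-15) between genotypes under HCA.

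**Figure D4:**
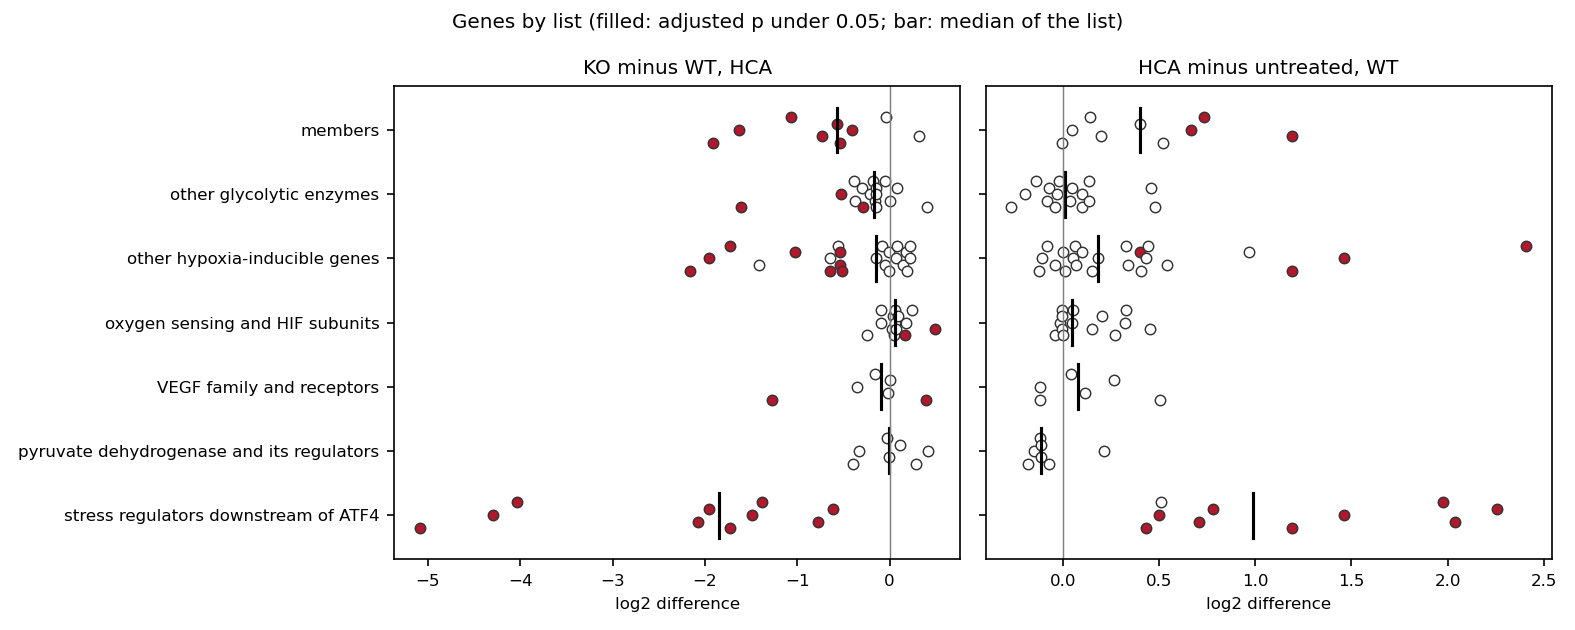
Log2 differences (horizontal axes) of each tested gene by list, for KO minus WT with HCA on the left and HCA minus untreated in WT cells on the right, with filled points at an adjusted p under 0.05 and a bar at each list's median. The members have medians of -0.57 and 0.40, and the stress regulators downstream of ATF4 of -1.85 and 0.98.

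The members split into patterns across the arrays. After subtracting each chip's mean, Pearson's r over the 24 arrays, which share chips and groups, was 0.92 between Vegfa and Hk2, 0.88 between Ldha and Pgk1, 0.82 between Vegfa and Egln3 and 0.84 between Hk2 and Slc2a1. It was 0.60 between Vegfa and P4ha1 and only 0.10 between Ldha and P4ha1. Pdk1 had values from -0.22 to 0.34 with the others, and Pfkfb3 had values below 0 with all but Pdk1. Among all tested genes, Vegfa was most like Myt1, Nupr1 and Slc1a4 (r = 0.97, 0.97 and 0.96), and Hk2 most like Cyb5r1 (0.92), Ier3 (0.92) and Vegfa. Ldha was nearest to Fdps, Fstl1 and Hsp90b1 (0.90, 0.89 and 0.89), Pgk1 to Pdia3, Uqcrh and Sqle (0.93, 0.93 and 0.91) and Egln3 to Ccdc80, Gatd3a and Col18a1 (0.95, 0.94 and 0.93). For Slc2a1 they were Lpcat3, Bhlhe40 and Dusp1 (0.87, 0.86 and 0.84), for P4ha1 Lmnb1, Slc38a2 and Pde4dip (0.80, 0.75 and 0.74), for Pfkfb3 Slc25a14, Zfp612 and Hbs1l (0.91, 0.89 and 0.89) and for Pdk1 Ppm1a, Stradb and Cul4a (0.79, 0.72 and 0.69).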

How the data were processed

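The authors deposited an average signal for 24048 probes, a linear intensity that BeadStudio 1.5.1.3 gave without normalization, per the file headers, with a detection score, read here as 1 minus a detection p. The authors also deposited log2 values for 23983 probes, which quantile normalization of the log2 raw signals gave back to within 5e-14.

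A single gene symbol went with 20919 of these probes, several with 1 and none with 3063, and 20905 symbols matched RefSeq (GRCm38.p6), which was used for names. Signals were background-corrected by normexp with the negative controls' mean and SD taken from detection quantiles (SD 14.1 to 22.8). The SD that limma's neqc inferred was 214 to 302.1 on chip 1 and 240.4 on WT HCA replicate 3, against 15.41 to 26.64 on the other arrays, so neqc was an alternative. After an offset of 16, quantile normalization and log2, 11884 probes with a detection p under 0.05 on 4 or more arrays entered, and the brightest probe stood for each gene, which left 8755 genes (54.9% of those named). Limma 3.58.1 (R 4.3.3; lmFit and eBayes) was fitted to all 24 arrays with group and chip (18 residual and 3.12 prior degrees of freedom), p was adjusted by Benjamini-Hochberg over all genes, and a gene was called at an adjusted p under 0.05. Each adjusted p is from this fit or a named alternative. The procedure was tested on simulated data with independent normal noise, in which 100 of 8755 genes changed by 0.5 and 100 by 1. Of 100 genes with a true log2 change of 0.5, it called 82 for untreated genotypes and 52 for genotypes with HCA. It called 52 for HCA in WT, 63 for HCA in KO and 38 for the difference of responses. For a true change of 1 the counts were 97, 82, 95, 87 and 73 of 100. A real change of such size can thus miss the threshold. In the measured data 1078 and 1820 genes were called between genotypes, untreated and with HCA. This sets a looser Benjamini-Hochberg cutoff than in the simulation, so its counts are not the power of those comparisons.

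Groups, replicate numbers and chips came from the labels. Members, lists and markers were chosen with earlier results of these data known. The text names all members, Atf4, up to 4 called genes of each list per comparison by p, and the 3 genes most like each member. Bhlhe40, P4ha2, Plod1, Narf, Aldoa, Pkm, Arnt, Egln1 and the marker genes were added to these with values in view. The alternatives were neqc, the deposited values, median centring, other detection filters, other summaries of probes, a fit without chip, with chip as a random block or on chips 2 and 3, a block for replicate number, a fit of the compared groups only, array weights, and each array left out in turn. Leaving out chip 2 or chip 3, or using chip 1 alone, was chosen after seeing the data.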

Additional observations from a re-analysis of the deposited data

Results flagged for a closer look

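In the group of 8 untreated KO arrays, P4ha1 on replicate 8 was 7.77, the highest, and the nearest array was at 7.26. In the group of 8 untreated WT arrays, Pfkfb3 on replicate 2 was 9.36, the lowest, and the nearest was at 9.79. In each case the gap took up more of the group's range than Dixon's critical value allows (0.539 and 0.589 against 0.526). Of 36 groups of member values examined 2 were so marked, and chance marks about 1 group in 20.

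The HCA response of Vegfa was lower in KO than in WT cells by a log2 difference of -1.33, and that of Hk2 by -0.99, both past the test of the difference itself. On chips 2 and 3 alone these were -1.14 (adjusted p = 0.0135) and -0.79 (adjusted p = 0.142).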

How the results depend on the processing

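Of 1701 values of members under the alternatives listed at the outset, 1652 kept their side of the threshold, 34 lost a call, 15 gained one and 0 of the called values changed sign. Most of these values were not called in the main fit, so the 34 losses came from a far smaller number. Most of the alternatives left out a single array. The counts of members called were 3 (KO against WT, untreated), 7 (the same with HCA), 3 (HCA in WT), 0 (HCA in KO) and 2 (difference of responses). With median centring the first 3 were 0, 4 and 1. Without the chip term the untreated count was 1. On chips 2 and 3 only it was 5, and the difference of responses had 1. With only the groups compared, HCA in WT had 1. In the settings chosen after seeing the data, the counts without chip 2 were 1, 3 and 1 for the first 3, without chip 3 they were 0, 4 and 1 with 0 for the difference of responses, and on chip 1 only the untreated count was 0. Those settings have fewer arrays. The cause of the other changes was not tested. Leaving out each array in turn gave 2 to 5 (untreated, 5 without WT untreated replicate 2), 6 to 8, 2 to 3, 0 to 0 and 2 to 3 members.

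Over all genes the counts of 1078, 1820, 126, 5 and 55 became 150, 398, 18, 1 and 18 with median centring. Without the chip term 4 of them were 191, 752, 15 (HCA in KO) and 23 (difference of responses). On chips 2 and 3 only they were 1780 (untreated), 3 and 24 in the same way, and with only the groups compared 69 (HCA in WT) and 0 (HCA in KO). HCA in KO had 9 with detection on at least 1 array and 8 with array weights, and the difference of responses had 35 with no filter. Without chip 2 they were 77, 393, 15, 18 and 33, without chip 3 73, 534, 39, 0 and 16, and on chip 1 only 32 (untreated). Leaving out single arrays gave 701 to 1275, 1343 to 1958, 57 to 133, 0 to 12 and 30 to 66.

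With replicate number as a block, the members called were 3, 7, 3, 0 and 2, as without it, and the difference of responses had 36 of all genes against 55. Whether the numbers pair the samples cannot be told here. In deviations from group and chip means, same-numbered WT and KO arrays correlated from -0.229 to 0.201, and 1 of 12 correlated best with its own number. With 2 arrays per group on chips 2 and 3, these values come in equal pairs by construction, so they are not 12 separate checks. Pairing of HCA with untreated arrays was not examined.

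Signal over background limited Bnip3 and the dimmer Pgk1 probe, which had no detected array, and Egln3 in KO cells with HCA, where 2 of 4 arrays detected it. HCA arrays were few, and chip 1 had none.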
